A study of Mus musculus with 6 samples.

Results

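A set of 10 chains of cytokine receptors that belong to inflammatory axes other than that of IL-33 were followed in mouse keratinocytes, the main cells of the epidermis. The chains are Il4ra, Il13ra1, Il6st, Osmr, Il17ra, Il17rc, Il20rb, Ifngr1, Ifnar1 and Tnfrsf1a, which were taken by name and make up 10 of 52550 gene identifiers measured. The cells came from the skin epidermis of newborn wild-type C57BL/6 mice at postnatal day 0 to 2, were grown in 48-well plates for 2 days, and carried no transgene or deletion according to the labels. In the treated group recombinant IL-33 was present for 12 h, and the untreated group received none. Each group had 3 libraries, numbered 1 to 3. How much IL-33 was added is not given in the labels, and they do not state if libraries of 1 group derive from different litters or wells. The p-values therefore cover library-to-library spread alone, and that spread may be technical.

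Most receptors of this kind are assembled from different chains, and a cell then answers a cytokine only where the full set is present, whereas TNFRSF1A works as a complex of identical chains. IL4RA pairs with IL13RA1 to bind IL-4 and IL-13, and gp130, the product of Il6st, pairs with OSMR to bind oncostatin M. IL17RA and IL17RC together receive IL-17A and IL-17F, IL20RB is the shared chain for IL-19, IL-20 and IL-24, and IFNGR1 and IFNAR1 serve type II and type I interferons. Most of these chains signal through Janus kinases and STAT factors. The IL-17 receptor and TNFRSF1A, the main TNF receptor of epithelia, use adaptor proteins that lead to NF-kB. In skin, IL-4 and IL-13 are associated with atopic dermatitis, and IL-17 and the IL-20 family with psoriasis. IL-33, which belongs to the IL-1 family, is released by damaged epithelium and signals through its own receptor to NF-kB and MAP kinases. The design asks whether RNA of the other receptors is altered in keratinocytes after exposure to it.

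At 12 h none of the 10 receptor chains passed the test for a change in RNA. In edgeR's quasi-likelihood test, 0 of 10 had an adjusted p under 0.05 over the 15778 genes tested, against 0.0697% of all tested genes (11 genes). DESeq2 and limma-voom also called 0 of 10, against 0.438% and 0.0697% of all genes they tested. At an unadjusted p under 0.05 the edgeR count was 1 of 10, the IL-17 receptor chain Il17rc, against 6.74% of all tested genes. The count was 0 without untreated replicate 2, where Il17rc had an unadjusted p of 0.0709 (adjusted p = 0.928, edgeR). It was also 0 without IL-33 replicate 1, where the unadjusted p was 0.0629 (adjusted p = 0.831, edgeR), and it was 2 without IL-33 replicate 3. The log2 fold change (IL-33 minus untreated) was above 0 for 3 chains and below 0 for 7, against 50.5% of all tested genes above 0. The median over the 10 chains was -0.04, against 0.00 over all tested genes, and it was 0.00 without IL-33 replicate 3. The 95% interval of the fold change lay within 1.5-fold in either direction for 9 of 10 chains, and Il20rb had the only wider interval than 1.5-fold. The measurement is of RNA, and receptor protein at the cell surface was not measured.

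Levels are given in FPKM, the deposited fragments per kilobase of gene scaled to sequencing depth. Basal keratinocyte markers summed to 33626 to 36207 CPM (deposited counts scaled to the TMM-adjusted library total) in IL-33 libraries and 33427 to 34584 in untreated libraries, and suprabasal markers to 8.98 to 12.2 and 10.4 to 11.5 CPM. Of other cell types, melanocyte markers (4 of 4 detected) summed to 771 to 854 CPM in IL-33 libraries and 790 to 826 CPM in untreated libraries, and fibroblast markers (5 of 5) to 26.3 to 30.9 and 29.3 to 38.0 CPM. Endothelial markers summed to 16.1 to 16.7 and 13.4 to 19.2 CPM, with Cdh5 at 9 deposited counts or fewer in every library, and Merkel cell markers (2 of 2) to 2.11 to 2.82 and 2.47 to 3.31 CPM. The leukocyte list summed to 39.5 to 42.4 and 38.4 to 41.9 CPM, nearly all of it Cd68 and Kit, with Cd3e and Itgam at 0 in every library and Ptprc, Adgre1 and Cd79a at 16 deposited counts or fewer. In the Langerhans cell list, at 141 to 160 and 143 to 166 CPM, the sum was that of Epcam, with Cd207 and H2-Aa at 0 and Cd74 at 4 counts in 1 library. None of the markers was called by edgeR (adjusted p of 0.575 or more). At an unadjusted p under 0.05 (edgeR) was 1 of 4 basal markers, the integrin Itgb4 (fold change 0.851). So were 2 of 4 suprabasal markers, Krt1 (1.91) and Ivl (0.713). Of 5 fibroblast markers 1 was, Col1a1 (0.441), against 6.74% of all tested genes. Col1a2 was also lower (0.834), while Col3a1, Pdgfra and Dcn lay above 1 (1.15, 1.03 and 1.12). Col1a1 had 12.6 CPM in untreated library 1, against 4.73 and 5.71 in untreated libraries 2 and 3. Without overlap, 1 of 4 basal markers was higher with IL-33, Krt5 (1.05), and 1 was lower, Itgb4. Of 4 melanocyte markers 1 was higher, Mlana (1.04), and 1 lower, Tyr (0.770). Also lower were 1 of 4 suprabasal markers, Ivl, and 1 of 5 fibroblast markers, Col1a1. No tested marker of the other lists separated, and 13.7% of all tested genes did. The parts of these cells in the receptor values were not tested. In bulk RNA, fewer cells of a type and less RNA per cell cannot be told apart. Library totals ran from 34188173 to 45266298 deposited counts, about 8547043 to 11316574 fragments.

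The receptor chains covered a wide range of levels, and their order was identical in both groups: Tnfrsf1a, Il17rc, Il6st, Ifnar1, Ifngr1, Il13ra1, Il4ra, Il17ra, Osmr and Il20rb, from highest to lowest. Tnfrsf1a stood above 88.8% of all tested genes in IL-33 cells and 89.1% in untreated cells. At the other end, Il20rb stood above 22.7% of tested genes in IL-33 cells and 19.2% in untreated cells. Of neighbours in this order, only Il13ra1 and Il4ra overlapped between libraries, and they did so in both groups. A gene's FPKM depends on the length assigned to it. The main coding transcript of Osmr alone stood at 1.90 ± 0.145 FPKM in IL-33 cells and 2.01 ± 0.185 FPKM in untreated cells (SD, n = 3 each), about double the value of its gene, so the places of chains with many annotated transcripts are approximate.

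**Figure D1:**
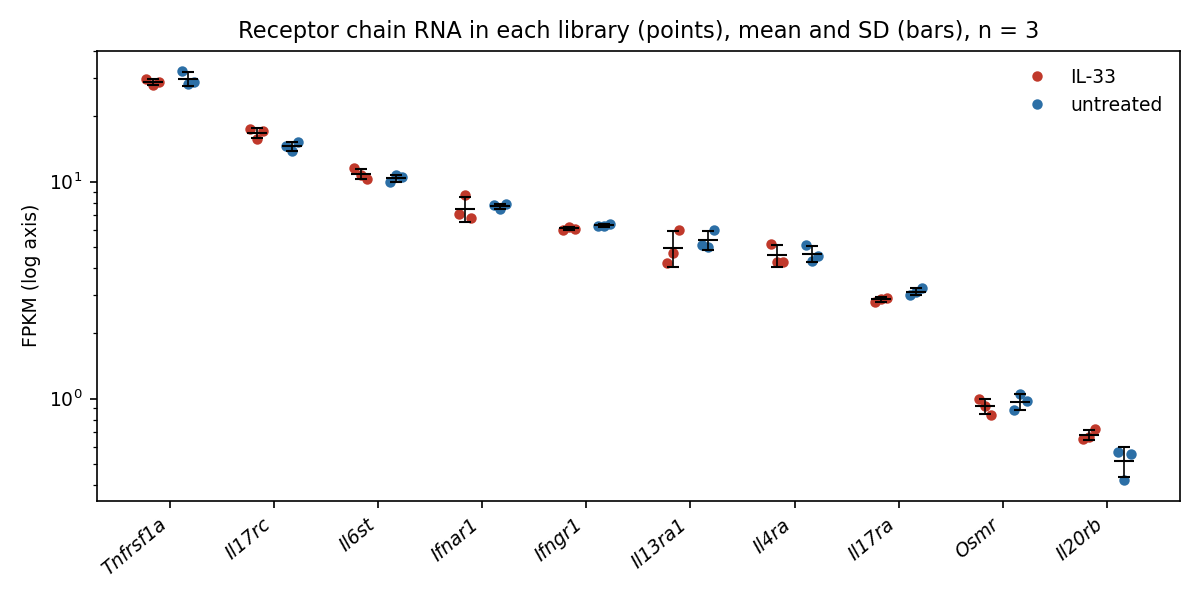
FPKM of each of the 10 receptor chains in every library on a log axis, with IL-33 libraries left of untreated libraries; points are libraries, and bars are the mean and SD of 3. The chains keep the same order in both groups, with Tnfrsf1a at 28.8 and 29.8 FPKM and Il20rb at 0.680 and 0.515 FPKM.

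The chains that receive IL-4 and IL-13 are described first, whatever their place in the order of levels. Il4ra (ENSMUSG00000030748.9, chr7:125552120-125579474 on GRCm38, plus strand), the signalling chain shared by both cytokines, had 5.17, 4.28 and 4.28 FPKM in IL-33 libraries 1 to 3, against 5.09, 4.30 and 4.56 FPKM in untreated libraries 1 to 3. Library 1 was the highest in each group, and the groups overlapped. The log2 fold change was -0.02 (SE 0.102, 95% interval -0.25 to 0.20, adjusted p = 0.978, edgeR). Il4ra was the only chain whose locus overlaps another annotated gene, the antisense Gm44876, which had 0 counts in every library. Il13ra1 (ENSMUSG00000017057.9, chrX:36112110-36171259, plus strand), its partner in the epithelial receptor, had 4.21, 4.67 and 6.00 FPKM with IL-33, against 5.11, 4.99 and 6.00 FPKM without. Library 3 was the highest in each group, and the IL-33 libraries spread over a wider range. Its log2 fold change was -0.11 (SE 0.14, interval -0.43 to 0.20, adjusted p = 0.911, edgeR).

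Among the chains of the IL-6 family, Il6st (ENSMUSG00000021756.12, chr13:112464070-112510086, plus strand), which encodes the shared signal transducer gp130, had 11.5, 10.7 and 10.3 FPKM in IL-33 libraries, against 9.93, 10.7 and 10.5 FPKM in untreated libraries. The groups overlapped, with a fold change of 1.05 (interval 0.959 to 1.14, adjusted p = 0.86, edgeR). Osmr (ENSMUSG00000022146.12, chr15:6813577-6874969, minus strand), the oncostatin M chain, had 0.992, 0.924 and 0.843 FPKM with IL-33, against 0.885, 1.05 and 0.969 FPKM without. Its libraries overlapped as well, and the log2 fold change was -0.07 (SE 0.118, interval -0.34 to 0.19, adjusted p = 0.934, edgeR).

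The 2 chains of the IL-17 receptor were the pair whose libraries separated in opposite directions. Il17rc (ENSMUSG00000030281.16, chr6:113471427-113483140, plus strand), the chain that joins IL17RA to receive IL-17A and IL-17F, had 17.5, 15.7 and 17.2 FPKM in IL-33 libraries, against 14.5, 13.8 and 15.3 FPKM in untreated libraries. Every IL-33 library lay above every untreated library, with 15.7 FPKM as the lowest of one group and 15.3 FPKM as the highest of the other. The means were 16.8 ± 0.926 and 14.5 ± 0.722 FPKM (SD, n = 3 each), the fold change was 1.15 (interval 1.03 to 1.29), and the unadjusted p was 0.0168 (edgeR). With adjustment over all tested genes p was 0.717 (edgeR), so the difference was not called.

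Il17ra (ENSMUSG00000002897.5, chr6:120463247-120487559, plus strand), the chain shared by several IL-17 receptors, had 2.79, 2.88 and 2.92 FPKM in IL-33 libraries, against 3.0, 3.10 and 3.23 FPKM in untreated libraries. All 3 IL-33 libraries lay below all 3 untreated libraries. The fold change was 0.921 (interval 0.817 to 1.04, adjusted p = 0.808, edgeR), and this difference was not called either.

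Il20rb (ENSMUSG00000044244.18, chr9:100457719-100486788, minus strand), the shared chain of the IL-20 family receptors, was the lowest of the 10. It had 0.652, 0.664 and 0.723 FPKM with IL-33, against 0.569, 0.420 and 0.555 FPKM without. Again the groups did not overlap, with the IL-33 libraries higher and untreated library 2 the lowest. These values rest on 136, 109 and 151 deposited counts in IL-33 libraries and 120, 83 and 119 in untreated libraries, where about 4 deposited counts stand for 1 fragment. The fold change was 1.33 (interval 0.956 to 1.84, adjusted p = 0.763, edgeR; unadjusted p = 0.0831), the widest interval of the 10.

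The interferon chains lay in the middle of the range. Ifngr1 (ENSMUSG00000020009.12, chr10:19591949-19610229, plus strand), which binds interferon gamma, had 6.01, 6.18 and 6.07 FPKM in IL-33 libraries, against 6.22, 6.27 and 6.37 FPKM in untreated libraries. The IL-33 libraries lay below the untreated ones without overlap, yet the fold change was 0.970 (interval 0.851 to 1.11, adjusted p = 0.949, edgeR). Ifnar1 (ENSMUSG00000022967.12, chr16:91485238-91507441, plus strand), a chain of the type I interferon receptor, had 7.08, 8.65 and 6.79 FPKM with IL-33, against 7.77, 7.46 and 7.86 FPKM without. IL-33 library 2 was the highest and IL-33 library 3 the lowest of all 6, and the fold change was 0.975 (interval 0.845 to 1.13, adjusted p = 0.964, edgeR).

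Tnfrsf1a (ENSMUSG00000030341.17, chr6:125349362-125362484, plus strand), the receptor that passes TNF signals to NF-kB, was the most abundant chain. It had 29.7, 27.9 and 28.8 FPKM in IL-33 libraries, against 32.3, 28.3 and 28.7 FPKM in untreated libraries. The groups overlapped, and untreated library 1 stood above the other 5 libraries. The fold change was 0.967 (interval 0.872 to 1.07, adjusted p = 0.921, edgeR).

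Separation of all 3 libraries from all 3 others thus occurred for 4 of 10 chains, against 13.7% of all tested genes. Il17rc and Il20rb were higher with IL-33, as were 7.39% of all tested genes, and Il17ra and Ifngr1 were lower, as were 6.26%. The 4 chains span fold changes of 0.921 to 1.33, and none was called.

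**Figure D2:**
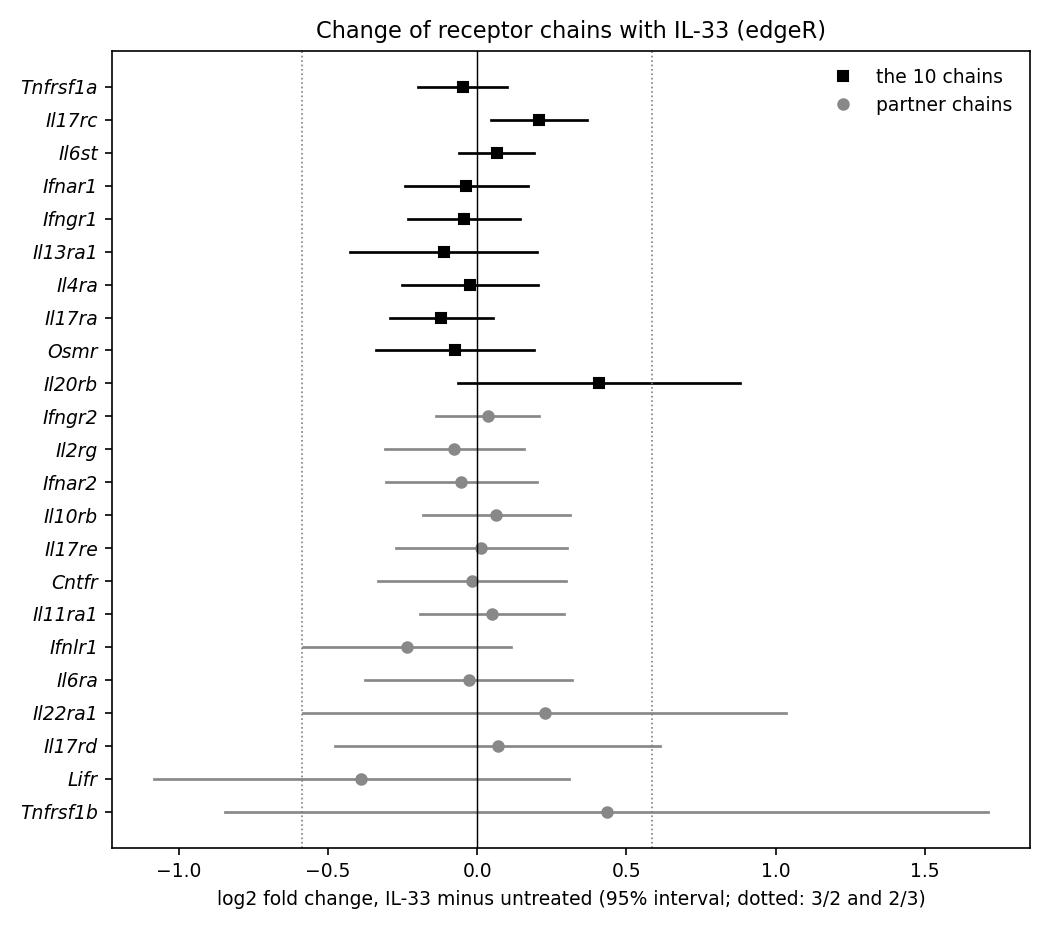
Log2 fold change, IL-33 minus untreated, of each of the 10 receptor chains (black squares) and the 13 tested partner chains (grey circles), with 95% intervals as bars from edgeR's quasi-likelihood test and dotted lines at 1.5-fold. Of the chains plotted, only Il17rc has an interval that lies off 0, at 0.05 to 0.37, and among the 10 that of Il20rb is the widest, at -0.06 to 0.88.

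Because most of these receptors need different chains together, the ratio of their FPKM was taken in every library for 5 pairs and compared by a two-sided exact permutation test, whose smallest p with 3 against 3 libraries is 0.1. The size of a ratio depends on the lengths assigned to both genes, so it does not give the proportion of the chains. Il17rc over Il17ra was 6.26, 5.45 and 5.87 in IL-33 libraries, against 4.84, 4.45 and 4.72 in untreated libraries. All IL-33 ratios lay above all untreated ratios, with means of 5.86 ± 0.406 and 4.67 ± 0.198 (SD, n = 3 each; log2 difference 0.33, exact permutation p = 0.1, adjusted over the 5 pairs 0.25). Osmr over Il6st was 0.0861, 0.0865 and 0.0815 with IL-33, against 0.0891, 0.0981 and 0.0924 without, and these also did not overlap, with the IL-33 ratios lower (log2 difference -0.14, exact permutation p = 0.1, adjusted 0.25). That is the smallest p this exact test can give with 3 libraries a group, so it could not pass 0.05 for either ratio. For Il17rc over Il17ra the separation was fixed in advance by the opposite separations of both chains given above, so its test adds no further evidence.

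The other 3 ratios overlapped between the groups. Il13ra1 over Il4ra was 0.814, 1.09 and 1.40 in IL-33 libraries, against 1.00, 1.16 and 1.31 in untreated libraries (log2 difference -0.10, exact permutation p = 0.8). Ifngr2 over Ifngr1 was 1.72, 1.65 and 1.69 with IL-33, against 1.57, 1.50 and 1.72 without (log2 difference 0.08, exact permutation p = 0.3). Ifnar2 over Ifnar1 was 0.844, 0.698 and 0.738 with IL-33, against 0.682, 0.875 and 0.746 without (log2 difference -0.01, exact permutation p = 0.9). Adjusted over the 5 pairs these were 0.9, 0.5 and 0.9, in the same order. No ratio was formed for Il20ra over Il20rb because Il20ra was listed at 0 in 5 of 6 libraries.

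**Figure D3:**
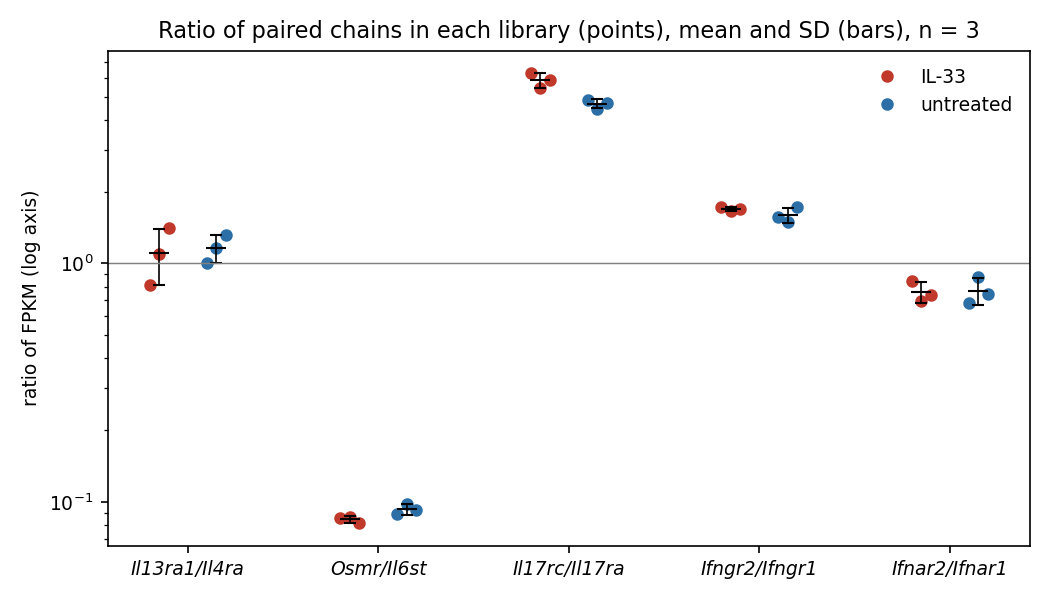
Ratio of FPKM of the chains of 5 receptors in each library, with IL-33 libraries left of untreated libraries on a log axis; bars are the mean and SD of 3. The Il17rc to Il17ra ratio spans 5.45 to 6.26 in IL-33 libraries and 4.45 to 4.84 in untreated libraries, and the Osmr to Il6st ratio is the other pair without overlap.

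The transcripts assigned to the 10 chains gave no call. Of 53 annotated transcripts of these genes in the deposited table, 27 were tested and 6 were at 0 in every library. edgeR's quasi-likelihood test called 0 of 27 over the 40163 transcripts tested, against 0.0299% of all of them, and 0 of 27 had an unadjusted p under 0.05, against 4.24% of all. DESeq2 and limma-voom called 0 as well, against 0.968% and 0.00747% of all transcripts they tested. The transcript test can miss large changes. In simulated data edgeR recovered 31% of 4-fold and 73% of 16-fold changes, among transcripts averaging 10 CPM or more. The Il20rb transcripts, at 107 deposited counts or fewer, and the tested retained-intron transcripts of Osmr, at 32 or fewer, lay below that level. These rates therefore do not cover them. For genes at that level, which Il20rb did not reach, it recovered 68% of 1.5-fold and 95% of 2-fold changes. Il13ra1 was assigned to 1 transcript, ENSMUST00000033418.7. Main coding transcripts held 95.3% ± 7.90 and 99.2% ± 0.763 of the summed FPKM for Il17ra in IL-33 and untreated cells (SD, n = 3 each), 95.2% ± 2.47 and 97.3% ± 0.472 for Tnfrsf1a, and 92.4% ± 6.33 and 93.0% ± 6.42 for Ifngr1. For Il6st the main coding transcript held 82.3% ± 13.4 and 86.9% ± 4.80, and for Osmr 71.5% ± 2.86 and 78.1% ± 6.56.

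The transcripts assigned to Il4ra varied widely between libraries of a group, while the gene total stayed between 4.28 and 5.17 FPKM. The protein-coding ENSMUST00000033004.7 (11 exons, 5256 bases) held 92.1%, 69.3% and 34.7% of the summed FPKM in IL-33 libraries, against 54.7%, 34.2% and 51.8% in untreated libraries. ENSMUST00000206846.1 (12 exons, 3696 bases), annotated as subject to nonsense-mediated decay, held 2.20%, 30.6% and 62.2% with IL-33, against 40.5%, 61.0% and 43.2% without. The IL-33 libraries were spread more widely than the untreated ones, and the groups overlapped. The log2 fold change of the decay transcript was -0.74 (unadjusted p = 0.505, adjusted p = 1.00, edgeR).

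Il17rc was divided between 3 coding transcripts. ENSMUST00000205208.2 (14 exons, 1759 bases) had 18.0, 13.8 and 14.9 FPKM in IL-33 libraries, against 11.9, 13.7 and 11.8 FPKM in untreated libraries (log2 fold change 0.31, unadjusted p = 0.0747, edgeR). Every IL-33 library was higher, though IL-33 library 2 only barely so over untreated library 2. The share of all tested transcripts that separate in this way was not taken. The short ENSMUST00000204447.2 (5 exons, 426 bases) had 6.75, 8.23 and 11.7 FPKM with IL-33, against 6.75, 4.20 and 5.34 FPKM without (log2 fold change 0.71, unadjusted p = 0.089, edgeR). Its groups overlapped, with IL-33 library 1 and untreated library 1 nearly equal. ENSMUST00000058300.13, the longest of the 3 (17 exons, 2302 bases), had 5.22, 6.10 and 6.32 FPKM with IL-33, against 6.46, 4.73 and 7.62 FPKM without (log2 fold change -0.10, unadjusted p = 0.673, edgeR). The 2 shorter transcripts had the higher means with IL-33 and the longest one did not, and none was called.

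Most of the Il20rb signal was assigned to transcripts annotated as retained introns. The coding ENSMUST00000098458.3 held 11.9%, 42.6% and 3.60% of its summed FPKM in IL-33 libraries, against 23.6%, 4.25% and 8.52% in untreated libraries. The shares of its 3 retained-intron transcripts ranged as widely between libraries of a group, so at this depth the gene's low value cannot be read as coding transcript alone. Ifnar1 was steadier, with its coding ENSMUST00000023689.10 at 80.2%, 88.9% and 80.2% with IL-33, against 86.6%, 89.9% and 86.7% without.

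**Figure D4:**
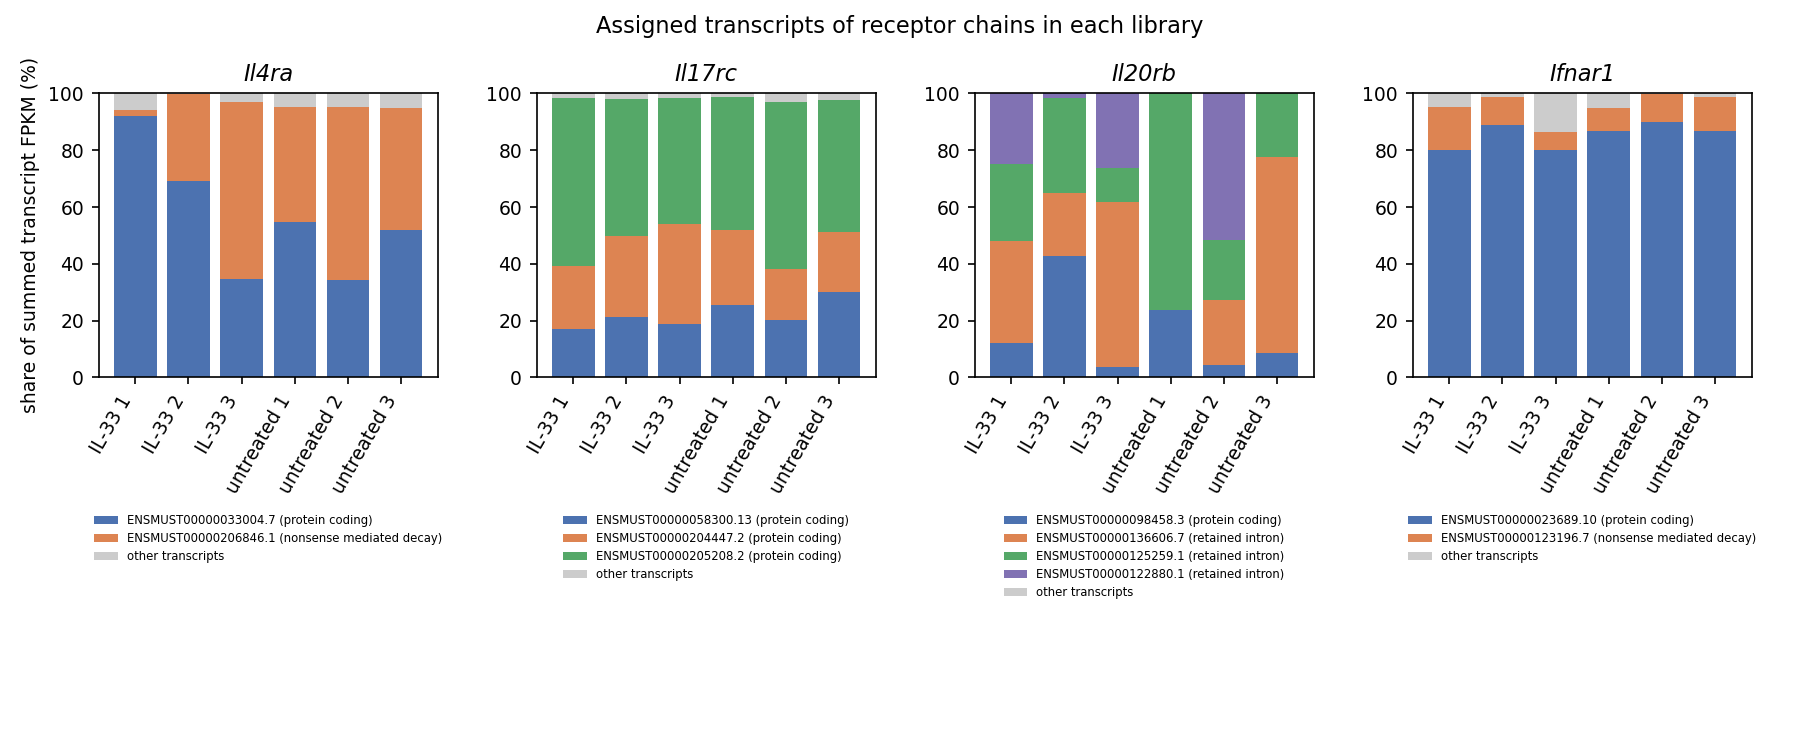
Share of the summed transcript FPKM assigned to each transcript of Il4ra, Il17rc, Il20rb and Ifnar1 in every library, IL-33 libraries left of untreated libraries; colours are transcripts and grey is the rest. The coding transcript of Il4ra runs from 34.7% to 92.1% among IL-33 libraries, and that of Ifnar1 from 80.2% to 88.9%.

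The promoters of the chains were compared because IL-33 signals through NF-kB and most of these receptors through STAT factors. RefSeq sequence (GRCm38.p6) from 250 bases before to 50 bases after the start was found for 9 of 10 chains, all but Il17ra. Printed are the 2 chains whose RNA was higher without overlap, Il17rc and Il20rb, and the most abundant chain, Tnfrsf1a. Capitals mark letters matching GGGNNNNNCC, an NF-kB type motif, or TTCNNNGAA, a STAT type motif, on either strand. The windows are chr6:113471205-113471504 on the plus strand for Il17rc, chr9:100486424-100486723 on the minus strand for Il20rb and chr6:125349473-125349772 on the plus strand for Tnfrsf1a. The starts used for them differ from the gene starts given above. The windows of Il20rb, Tnfrsf1a and Osmr lie wholly within the loci given above, not upstream of them.
Il17rc: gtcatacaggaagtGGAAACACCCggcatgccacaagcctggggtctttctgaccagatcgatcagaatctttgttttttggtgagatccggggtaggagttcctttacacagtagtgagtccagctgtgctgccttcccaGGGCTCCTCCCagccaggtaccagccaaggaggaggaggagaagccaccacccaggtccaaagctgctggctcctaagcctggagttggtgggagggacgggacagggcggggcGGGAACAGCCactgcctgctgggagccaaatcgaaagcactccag
Il20rb: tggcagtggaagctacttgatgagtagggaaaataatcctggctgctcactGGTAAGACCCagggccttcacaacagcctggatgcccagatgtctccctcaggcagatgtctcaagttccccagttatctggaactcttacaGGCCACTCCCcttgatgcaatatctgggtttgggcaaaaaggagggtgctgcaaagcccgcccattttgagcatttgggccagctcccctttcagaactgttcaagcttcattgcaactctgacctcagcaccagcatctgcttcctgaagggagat
Tnfrsf1a: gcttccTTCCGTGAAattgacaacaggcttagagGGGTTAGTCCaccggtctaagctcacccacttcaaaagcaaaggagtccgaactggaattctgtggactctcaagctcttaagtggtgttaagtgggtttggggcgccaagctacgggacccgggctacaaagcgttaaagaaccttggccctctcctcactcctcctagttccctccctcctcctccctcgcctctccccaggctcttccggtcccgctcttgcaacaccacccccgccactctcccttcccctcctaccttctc

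GGGNNNNNCC occurred in 8 of 9 promoters, and in 50.8% of all 32851 mouse promoters of the same length. Il17rc held 4 matches, 1 of them overlapping a GGGCGG (GC box) match, and 1 marked stretch matched on both strands and was counted for each. Il20rb held 2 matches and Tnfrsf1a held 1. Of the promoters not printed, those of Osmr and Il13ra1 held 3 each, Ifngr1 2, Il4ra and Il6st 1 each and Ifnar1 0. A link between these counts and the RNA changes was not tested. TTCNNNGAA occurred in 2 of 9, those of Tnfrsf1a and Ifnar1, against 8.30% of all promoters. GGGCGG was in 8 of 9, against 35.7% of all, CCAAT in 3 of 9, against 37.4%, and TATAAA in 0 of 9, against 13.6%. The 9 promoters had a median GC content of 62% and 22 CpG sites, against 52.7% and 7 over all promoters. GGGNNNNNCC and GGGCGG have only G or C at their fixed letters. Promoters of like GC content were not compared, so the shares over all promoters are not a like background for these 2 motifs. These are matches of letters, and neither factor binding nor chromatin was measured.

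None of the chains that pair with the 10 receptors passed the test. Of 19 partner chains 13 were tested, and 0 were called by edgeR (0 at an unadjusted p under 0.05), with 7 of 13 above 0, against 0.0697%, 6.74% and 50.5% of all tested genes. Their median was 0.01 on the log2 scale and changed sign with libraries left out (-0.02 to 0.03). Il2rg, the common gamma chain that pairs with Il4ra in leukocytes, had 5.81 ± 0.362 FPKM with IL-33 and 6.13 ± 0.444 FPKM without (SD, n = 3 each). Ifngr2 and Ifnar2, the second chains of the interferon receptors, stood at 10.3 ± 0.055 and 5.67 ± 0.574 FPKM in IL-33 cells, against 10.0 ± 0.808 and 5.90 ± 0.616 FPKM in untreated cells. For all 3 the IL-33 mean lay within 1 SD of the untreated mean.

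Of chains that join IL17RA, Il17re, which forms the IL-17C receptor, had 4.00 ± 0.631 FPKM with IL-33 and 3.97 ± 0.436 FPKM without. Il17rd, a related chain, had 0.345 ± 0.0622 and 0.328 ± 0.0977 FPKM. Il17rb, the IL-25 chain, was too low to test, with 27, 1 and 0 deposited counts in IL-33 libraries and 3, 6 and 18 in untreated libraries. Of gp130 partners, Cntfr had 3.27 ± 0.435 and 3.31 ± 0.309 FPKM, Il11ra1 2.96 ± 0.239 and 2.86 ± 0.154, Il6ra 1.76 ± 0.269 and 1.79 ± 0.305, and Lifr 0.187 ± 0.0767 and 0.247 ± 0.0526, each with the IL-33 value before the untreated one. IL-6, IL-11, LIF and CNTF are received through these chains.

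In the IL-20 and interferon lambda group, Il10rb, shared by IL-22, IL-10 and interferon lambda, had 5.56 ± 0.589 FPKM with IL-33 and 5.32 ± 0.542 FPKM without. Il22ra1, which can join IL20RB, had 0.506 ± 0.173 and 0.430 ± 0.107 FPKM. Ifnlr1, the interferon lambda chain, had 1.59 ± 0.0607 and 1.87 ± 0.323 FPKM (log2 fold change -0.24, adjusted p = 0.812, edgeR). Tnfrsf1b, the other TNF receptor, had 0.220 ± 0.146 and 0.162 ± 0.0447 FPKM. Il20ra, the alternative partner of IL20RB, had 5, 0 and 0 deposited counts with IL-33 and 0 in every untreated library. Il31ra, which joins OSMR to bind IL-31, had 5, 2 and 0 counts with IL-33 and 0, 0 and 2 without, and Il10ra 0, 0 and 4 with IL-33 and 9, 0 and 0 without. Il13ra2 and Il27ra had 0 in all 6 libraries. The low values of these 5 chains lay under a floor of 12 deposited counts per library (3 fragments, 0.265 to 0.351 CPM), which covers counting error only.

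Few ligands of these receptors were detected in the culture. Of 20 ligands 5 were tested, 0 were called by edgeR (0 at an unadjusted p under 0.05), and 2 of 5 were above 0, against 0.0697%, 6.74% and 50.5% of all tested genes. Their median was -0.10 on the log2 scale, -0.03 with DESeq2 or with no filter on low counts, where more ligands enter, and -0.16 without untreated replicate 2. Il24, a ligand of IL20RB receptors, had 4.00 ± 0.713 FPKM with IL-33 and 4.97 ± 0.617 FPKM without (log2 fold change -0.30, adjusted p = 0.777, edgeR). Lif and Clcf1, which signal through gp130, had 4.22 ± 0.399 and 1.96 ± 0.153 FPKM in IL-33 cells, against 4.59 ± 0.208 and 2.09 ± 0.220 FPKM in untreated cells. Tnf, the ligand of TNFRSF1A, had 4.52 ± 1.07 FPKM with IL-33 and 4.16 ± 0.354 FPKM without. None of the 4 differed beyond the test. Il4 was near the floor, at 5 to 16 deposited counts. In all 10 ligands, Il13, Osm, Il31, Il17a, Il17c, Il20, Il22, Ifng, Ifnb1 and Ifnk, had 0 counts in all 6 libraries, and Il6, Il11, Il17f, Il19 and Lta had at most 13.

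All 17 proximal signalling genes were tested, and 0 were called by edgeR (0 at an unadjusted p under 0.05), with 14 of 17 above 0, against 0.0697%, 6.74% and 50.5% of all tested genes. Their median was 0.04 on the log2 scale (0.01 to 0.07 with libraries left out), and every interval lay within 1.5-fold. The 4 with the smallest p were Jak1, the kinase used by most of these receptors, Irs2, an adaptor of the IL-4 receptor, Fadd, an adaptor of TNFRSF1A, and Tyk2, a kinase of IFNAR1. Jak1 had 24.6 ± 0.177 FPKM with IL-33 and 23.4 ± 0.507 FPKM without (SD, n = 3 each; log2 fold change 0.07, adjusted p = 0.773, edgeR), and its groups did not overlap. Irs2 had 28.3 ± 2.02 and 29.8 ± 1.29 FPKM, Fadd 4.20 ± 0.475 and 4.61 ± 0.212 FPKM, and Tyk2 4.95 ± 0.568 and 4.53 ± 0.459 FPKM in IL-33 and untreated cells, with adjusted p of 0.842 to 0.854 (edgeR).

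The 18 genes known as targets of these receptors were all tested, and 0 were called, while 2 had an unadjusted p under 0.05 in edgeR, and 13 of 18 were above 0, against 0.0697%, 6.74% and 50.5% of all tested genes. Their median was 0.05 on the log2 scale, 0.16 with IL-33 library 2 left out and 0.00 with untreated library 2 left out. Irf1, an interferon-induced transcription factor, had 1.97, 2.29 and 1.92 FPKM in IL-33 libraries, against 1.35, 1.88 and 1.37 FPKM in untreated libraries. Every IL-33 library was higher, though by little over untreated library 2 (log2 fold change 0.42, SE 0.168, unadjusted p = 0.0316, adjusted p = 0.74, edgeR). Lcn2, an antimicrobial protein induced by IL-17, had 29, 9 and 22 deposited counts with IL-33, against 0, 9 and 4 without, with IL-33 library 2 and all untreated libraries under the floor (unadjusted p = 0.0418, adjusted p = 0.74, edgeR). S100a8, an antimicrobial calcium-binding protein, had 13, 29 and 37 counts with IL-33, against 13, 13 and 13 without, close to the floor of 12 (adjusted p = 0.763, edgeR). Arid5a, an RNA-binding protein of IL-17 signalling, had 1.88 ± 0.0787 FPKM with IL-33 and 2.24 ± 0.386 FPKM without (adjusted p = 0.763, edgeR). Over the 4 lists together, 0 of 53 tested genes were called by edgeR, 0 by DESeq2 and 0 by limma-voom, with 2 at an unadjusted p under 0.05 in edgeR.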

How the data were processed

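Messenger RNA libraries of 3 IL-33 and 3 untreated keratinocyte cultures were sequenced. Tools listed in the submitters' processing notes are HISAT2 2.1.0, StringTie 1.3.4d, FastQC 0.11.7 and DESeq2 1.18.1, with the build mm10 and no roles. Which annotation was used is not stated in them. The deposited estimated counts are whole numbers for each gene and transcript, and their low values pile up at multiples of 4, so about 4 deposited counts were taken as 1 fragment. The deposited FPKM values are scaled to feature length and depth by the authors, per the file headers. Symbols were matched for 52403 of 52550 identifiers, and positions are those of GENCODE M21 on GRCm38, which may not be the authors' release. Whether counting used strand is not known here.

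The main test was edgeR 4.0.16 (R 4.3.3): TMM scaling, filterByExpr with a minimum count of 10, a robust quasi-likelihood fit and Benjamini-Hochberg adjustment over all genes or transcripts, with a threshold of 0.05. No rounding was needed. CPM values are TMM-scaled. Alternatives were DESeq2 1.42.0 and its size factors, library totals, limma-voom (limma 3.58.1), other count filters, counts divided by 4, a replicate block, each library left out and limma on log2(FPKM + pseudocount) at 0.1 and 1. The scripts were tested on simulated data. Libraries differed from each other beyond sampling noise in every pair (median chi-square 1.88 to 2.73 times its sampling value). The 37 mitochondrial genes were at 0 in every library. The receptor chains, gene lists and tests were chosen with earlier results of these data known. Genes named from the lists were every partner chain, ligands at 0.1 FPKM or more in a group mean, and the 4 smallest p-values of the signalling and target lists. Transcripts named held at least 10% of their gene's summed FPKM in a group mean.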

Additional observations from a re-analysis of the deposited data

How the results depend on the processing

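Receptor chains called stayed at 0 under all 17 alternatives, as did genes of the 4 pathway lists, and transcripts of the chains stayed at 0 under the 14 run for them. Genes called over the whole table were 11, against 71 with DESeq2, 17 with no filter on low counts and 4 in each of 3 limma fits on FPKM. Leaving out each library in turn gave 11 to 90. The counts beyond 1.5 times the full one were 90 with IL-33 library 3 removed, 20 with IL-33 library 1 removed and 18 with untreated library 3 removed. With a library left out, the log2 fold change ranged from -0.121 to 0.0389 for Il4ra, -0.15 to 0.0316 for Ifnar1 and -0.0878 to 0.00795 for Tnfrsf1a, and the log2 difference from -0.289 to 0.103 for Il13ra1 over Il4ra and -0.0931 to 0.0869 for Ifnar2 over Ifnar1, so these have no stable sign. Il17rc stayed between 0.17 and 0.25 with adjusted p of 0.529 to 0.958 (edgeR and the other tools), and Il13ra1 reached -0.27 without IL-33 replicate 3. The cause of these shifts was not tested. With the replicate number as a block, 8 genes and 0 receptor chains were called. Same-numbered libraries correlated at 0.0623, 0.0580 and -0.00647 over 13165 genes, and IL-33 replicate 3 did not correlate best with its own number, so the numbers were not taken as pairs. Il20rb, at 83 to 151 deposited counts, was 0.28 without untreated replicate 2 and 0.15 in limma on log2(FPKM + 1). The Il20ra over Il20rb ratio was not run.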
